A study of Mus musculus with 11 samples.

Results

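The genes described here are 7 genes of the colonic epithelium, Clca4b, Clca4a, Mptx1, Wfdc18, S100g, Cpn1 and Mettl7a2, out of 29809 genes in the deposited matrix. They were chosen by name for large ratios of injured to uninjured libraries in these same data, so each ratio to the uninjured library is a description with no test. Single-cell RNA was read from the 3' end in colonic mucosa of mice, with 1 library for each of 11 groups. The uninjured group was wild type (WT) and about 2 months old. The other WT mice, of the same age, were given 3% dextran sulfate sodium (DSS), a polysaccharide that injures the colonic epithelium, for 6 days, and colons were taken in the first days around the end of exposure (days 6, 7 and 9, counted from its start), in the following days (11 and 12) or later (16, 18, 19 and 23). The last group was Il10-/-, which lacks interleukin 10 and had colitis without DSS, at about 10 months of age. Mice were pooled, 3 to 8 to a library, so a library stands for its pool, and an interval printed for a single library covers counting error only. The days 7, 11 and 18 carry the batch label C and were processed fresh, from 3 mice each, while the cell table gives the others as frozen, from 8 mice each. Cell types are those of the authors, and "columnar cells" means their Car4, Car4/Ly6g, Dpep1/Guca2a, Crypt-1, Crypt-2 and Goblet types of epithelium, summed per library.

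The colonic surface is renewed from crypts. Crypt cells divide and give rise to absorptive colonocytes, which take up water and salts near the lumen, and to goblet cells, which make mucus. Clca4a and Clca4b belong to the CLCA family, secreted or shed proteins that act on calcium-activated chloride conductance and on mucus. Mptx1 encodes a mucosal pentraxin, a relative of the acute phase proteins C-reactive protein and serum amyloid P. Wfdc18 encodes a small secreted protein with a whey acidic protein (WAP) domain, a fold found in several antimicrobial and protease-inhibiting proteins. S100g encodes calbindin-D9k, which carries calcium across absorptive cells and is a known target of vitamin D. Cpn1 encodes the catalytic subunit of carboxypeptidase N, which trims basic residues from peptides such as kinins and anaphylatoxins. Mettl7a2 encodes a methyltransferase-like protein of lipid droplets and endoplasmic reticulum.

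The genes lie on 6 chromosomes in the mm10 build. Clca4b (chr3:144910921-144932529) and Clca4a (chr3:144952480-144975045) are neighbours on the minus strand, and the pseudogene Clca4c-ps and the genes Clca1 and Clca2 flank them. Wfdc18 (chr11:83709015-83711348, plus strand) lies between Wfdc17 and Wfdc21, and Mettl7a2 (chr15:100353200-100361840, plus strand) lies beside Mettl7a1 and Mettl7a3. Mptx1 is at chr1:174330518-174332873 (plus strand), S100g at chrX:162961992-162964599 (minus strand) and Cpn1 at chr19:43956307-43986556 (minus strand). Since the method counts transcript ends, the last 400 bases of each coding transcript were compared with the whole transcripts of the relatives. None of 311 windows of 90 bases was shared between Clca4b and Clca4a, Clca1, Clca2 or Clca4c-ps, and none between Mptx1 and Mptx2, between Wfdc18 and Wfdc17 or Wfdc21, or between Cpn1 and Cpn2. Mettl7a2 shared 57 of its 311 windows (18.3%) with Mettl7a1, so its counts are uncertain.

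The 250 bases before the RefSeq start (GRCm38.p6) are printed for 4 of the 6 genes that matched the RefSeq promoter table: for Clca4b and Wfdc18, the genes higher in all 9 DSS libraries by the ratios that chose them, and for Mptx1 and Cpn1, each of which had its own leading cell type. The windows are chr3:144932530-144932779 (minus strand) for Clca4b, chr11:83708754-83709003 (plus strand) for Wfdc18, chr1:174330268-174330517 (plus strand) for Mptx1 and chr19:43986521-43986770 (minus strand) for Cpn1. Each is written 5′ to 3′ on the strand of the gene, and capitals mark matches, on either strand, to TATAAA, to TTTATG (a core of CDX factor sites) or to GTTAAT (a half-site of HNF1 factors).
Clca4b: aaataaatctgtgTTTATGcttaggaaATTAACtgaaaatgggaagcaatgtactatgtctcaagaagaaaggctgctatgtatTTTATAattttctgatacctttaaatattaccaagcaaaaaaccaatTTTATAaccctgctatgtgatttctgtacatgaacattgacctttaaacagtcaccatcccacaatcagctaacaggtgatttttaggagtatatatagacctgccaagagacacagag
Wfdc18: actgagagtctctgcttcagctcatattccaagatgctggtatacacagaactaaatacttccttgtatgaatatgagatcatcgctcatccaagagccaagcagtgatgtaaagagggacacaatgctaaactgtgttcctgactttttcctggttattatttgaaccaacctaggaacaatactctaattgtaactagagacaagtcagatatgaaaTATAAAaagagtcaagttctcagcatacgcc
Mptx1: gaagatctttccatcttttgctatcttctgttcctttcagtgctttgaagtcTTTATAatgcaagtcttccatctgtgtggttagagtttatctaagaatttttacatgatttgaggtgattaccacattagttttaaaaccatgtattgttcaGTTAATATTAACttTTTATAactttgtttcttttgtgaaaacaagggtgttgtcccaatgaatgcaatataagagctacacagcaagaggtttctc
Cpn1: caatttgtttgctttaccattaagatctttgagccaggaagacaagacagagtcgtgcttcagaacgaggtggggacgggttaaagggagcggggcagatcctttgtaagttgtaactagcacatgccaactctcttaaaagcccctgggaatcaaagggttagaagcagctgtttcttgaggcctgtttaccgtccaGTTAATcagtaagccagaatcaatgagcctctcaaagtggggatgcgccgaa
Clca4b held matches to all 3 sets of letters. Wfdc18 held TATAAA at 31 bases before the start. Mptx1 held TATAAA at 82 and 198 bases and a back-to-back pair of the HNF1 half-site at 90 and 96 bases before the start, and Cpn1 held that half-site at 52 bases. Of 32851 promoter windows of the same length, 12.4% held TATAAA, 10.8% the CDX core and 6.43% the HNF1 half-site. The letters TGANTCA (AP-1), in 6.75% of windows, and motifs of STAT (7.02%) and NF-kB (1.21%) factors were not found in the 6 windows of the matched genes. These are matches of letters only.

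Columnar cells numbered 298 to 4356 per library, 12217 in all, with 1959349 to 50651546 counts per library and a median of 3985.5 to 10235 counts per cell. The median mitochondrial share of a columnar cell was 34.7% in the uninjured library, 15.2% to 31.6% in the DSS libraries and 27.9% in the Il10-/- library. Over all 55603 cells, 611 barcodes occurred in more than 1 library (1238 cells). Several types carried their defining markers: Muc2 stood at 12206 CPM (counts per 1000000 counts of the same library and type) in the Goblet type over all libraries against 40 to 275 CPM in the other columnar types, and Guca2a at 9441 CPM in Dpep1/Guca2a against 100 to 1188 CPM. Others did so less clearly. Car4 was lower in the Car4 type (1158 CPM) than in Car4/Ly6g (3248 CPM) and Dpep1/Guca2a (1739 CPM). The types also differed in median mitochondrial share, at 38.9% to 54.9% in Car4 and 14.1% to 24.0% in Car4/Ly6g over the DSS libraries. CPM includes mitochondrial counts, and levels by type were not rescaled without them. Crypt-1 held the stem cell marker Lgr5 (9.51 CPM) and the cycling marker Mki67 (344 CPM), but Crypt-2 had little of either (0.158 and 14.1 CPM) and had surface markers (Krt20 541 CPM, Guca2a 1188 CPM, Slc26a3 206 CPM), so its name is used here only as the authors' label. Neutrophil markers in columnar cells (4 of 4 genes detected) summed to 3.93 CPM in the uninjured library, 305 to 6222 CPM in frozen DSS libraries, 2349 to 11394 CPM in batch C and 2954 CPM in the Il10-/- library. Their part in the values below was not tested. In neutrophils the 7 genes had medians over the DSS libraries of 0 to 36.6 CPM.

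In columnar cells, Clca4b and Wfdc18 stood at least 4-fold above the uninjured library in all 9 DSS libraries, as did 1.02% of the 8626 genes that could be judged. Mptx1, Mettl7a2, S100g and Cpn1 stood at least 4-fold below it in 7, 6, 5 and 5 of the 9, and 0.638% of genes did so in at least 5. Clca4a passed 4-fold in neither direction in any library. In the Il10-/- library Clca4b and Wfdc18 were higher by at least 4-fold, Cpn1 was lower by at least 4-fold, and the other 4 genes were within 4-fold. As these ratios chose the genes, nothing is read from the counts against their background. Cpn1 at day 12 (4.45-fold lower) and S100g at day 19 (4.53-fold lower) just passed 4-fold. Mptx1 at day 16 (3.95-fold lower) and Mettl7a2 at day 12 (3.75-fold lower) just missed it. With the mean of the cells' own CPM, or with equal weight for each type, S100g and Cpn1 were 4-fold lower in 4 of 9 libraries each. Scaling to non-mitochondrial counts moved the median log2 ratio of all genes by −0.44 to −0.15 over the DSS libraries, and TMM scaling by −0.47 to −0.02.

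**Figure D1:**
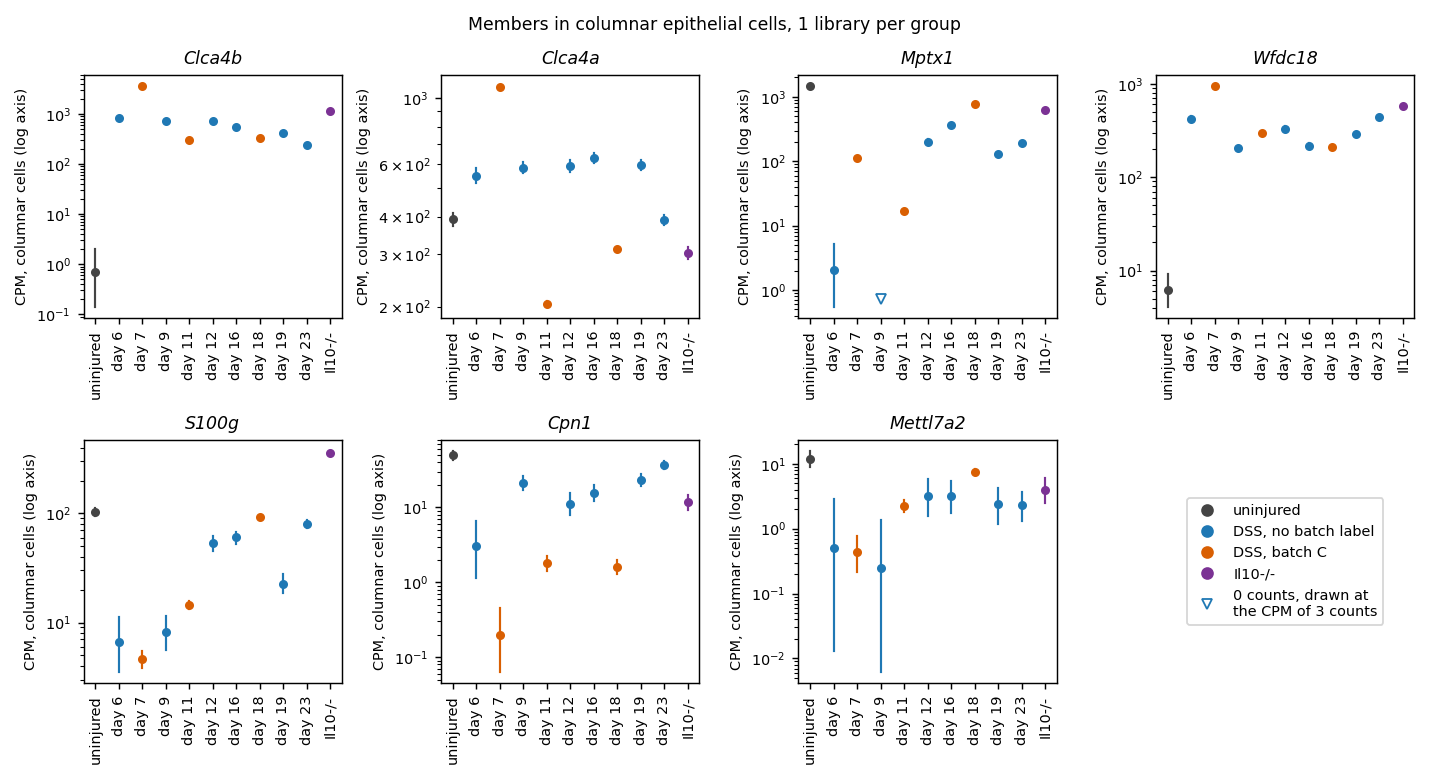
CPM (log axis) of each gene in columnar cells, 1 point per library with its exact Poisson 95% interval, coloured by group and batch label. Clca4b and Wfdc18 sit far above the uninjured point in every injured library, Mptx1, S100g and Mettl7a2 are lowest on days 6 to 11, Cpn1 is lowest in the 3 libraries of batch C, and the open triangle marks the 0 counts of Mptx1 on day 9.

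Clca4b was close to silent in the uninjured epithelium and present in every injured library. Its level in columnar cells was 0.694 CPM in the uninjured library, from 3 counts, then 824 CPM at day 6, 3655 at day 7 and 715 at day 9. It stood at 308 CPM at day 11, 722 at day 12, 544 at day 16, 327 at day 18, 420 at day 19 and 243 at day 23, with 1152 CPM in the Il10-/- library. No injured library overlapped the uninjured one: the lowest ratio, on day 23, was 350-fold with a counting interval of 120 to 1698. Days 9 to 19 ranged from 308 to 722 CPM, with day 7 of batch C alone far above.

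The Car4/Ly6g colonocytes carried most of it. They held 74.3% of all columnar Clca4b counts and had the highest level of all columnar types in 10 of 11 libraries. In that type the level was 0 CPM in 135 uninjured cells, 2279 CPM at day 6, 5255 at day 7, 3446 at day 9, 1345 at day 11, 1603 at day 12, 1562 at day 16, 925 at day 18, 1330 at day 19 and 845 at day 23. Over the DSS libraries the median was 1562 CPM in Car4/Ly6g, 464 in Car4, 332 in Dpep1/Guca2a, 310 in Crypt-2, 34.3 in Crypt-1 and 20.04 in Goblet. The ranges of Car4, Dpep1/Guca2a and Crypt-2 overlapped, so their order is not beyond the spread between libraries, while Crypt-1 (18.3 to 241 CPM) lay below the whole range of Car4/Ly6g (845 to 5255 CPM). Crypt-2 on day 7 reached 2549 CPM. With cells thinned to 1000 UMIs, which left out 0 to 11 shallower cells per library, 33.5% to 91.1% of Car4/Ly6g cells of the DSS libraries held a Clca4b molecule, against 0.2% to 3.75% of fibroblasts in the same libraries. Before thinning the shares were 56.0% to 99.3% and 0.936% to 22.3%. Counts were uneven between cells: on day 18 the 132 of 1318 cells with the most Clca4b held 68.5% of its counts in the type, and on day 7 the top 85 of 850 cells held 37.8%. Outside columnar cells, the 20 enteroendocrine cells of day 7 had 887 CPM at a median depth of 23851.5 counts, and the 22 of day 18 had 2.32 CPM.

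Clca4a, the neighbouring gene, was already expressed in the uninjured library and stood within 2.77-fold of that level in each other library. Its columnar level was 391 CPM uninjured, 549 at day 6, 1086 at day 7, 584 at day 9, 204 at day 11, 592 at day 12, 627 at day 16, 313 at day 18, 597 at day 19, 389 at day 23 and 303 CPM in the Il10-/- library. The uninjured value lies inside the range of the DSS libraries, which are higher on 6 days, lower on days 11 and 18, and level with it on day 23. Within Car4/Ly6g cells all 9 DSS libraries (939 to 2484 CPM) were above the uninjured 779 CPM, and on days 11 and 18 the ratio of the columnar sum turns above 1 when each type has equal weight (log2 ratios of 0.66 and 0.49), and on day 18 also with the mean of the cells' own CPM (0.10). Levels were highest in Car4/Ly6g (DSS median 1503 CPM), Dpep1/Guca2a (901) and Car4 (776). Dpep1/Guca2a (661 to 1245 CPM) overlapped both others, but Car4 (509 to 882 CPM) lay below the range of Car4/Ly6g. Whether that gap stays without mitochondrial counts, which were a larger share in Car4, was not tested. Clca4a levels were low in Crypt-2 (123), Goblet (48.1) and Crypt-1 (7.02).

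As a share of the summed counts of both genes, Clca4b was near 0 in uninjured columnar cells and 38.4% to 79.2% in the injured libraries. Transcript ends are counted once per molecule, so gene length does not enter this share. Clca4b was 3 of 1695 counts in uninjured columnar cells (0.177%), and in Car4/Ly6g cells 0 of 798, which allows up to 0.461% by the exact 95% interval. In Car4/Ly6g it was 63.2% at day 6, 74.9% at day 7, 58.1% at day 9, 58.9% at day 11, 51.6% at day 12, 46.8% at day 16, 48.4% at day 18, 46.7% at day 19 and 45.1% at day 23, and it was 81.6% in the Il10-/- library. Over the 4 latest days the share lay between 45.1% and 48.4%. Between types, Crypt-2 had a higher share than Car4/Ly6g in all 10 injured libraries (62.8% to 97.2%), and Car4/Ly6g a higher one than Dpep1/Guca2a in all 7 libraries that held that type. In Dpep1/Guca2a it was 0 of 538 counts uninjured, 27.8% at day 6, 41.1% at day 16, 13.6% at day 23 and 59.6% in the Il10-/- library. After thinning, 56.8% of 844 Car4/Ly6g cells on day 7 held both transcripts, 34.4% Clca4b alone and 2.84% Clca4a alone. On day 23 the same shares of 146 cells were 15.1%, 21.9% and 32.2%, and over the injured libraries 15.1% to 56.8% of barcodes held both. In fibroblasts of the DSS libraries, 0.2% to 3.75% held Clca4b and 0.312% to 2.32% held Clca4a after thinning, and no doublet caller was run.

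**Figure D2:**
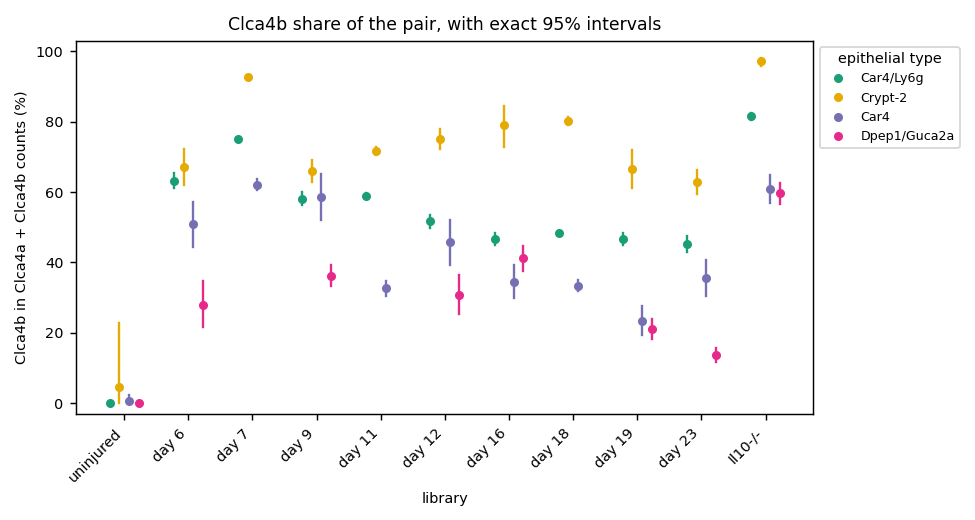
Clca4b counts as a percentage of Clca4a plus Clca4b counts in 4 epithelial types, 1 point per library with its exact (Clopper-Pearson) 95% interval. The share is near 0 in the uninjured library, Crypt-2 points lie highest in all 10 injured libraries, and Dpep1/Guca2a points are lowest among injured libraries on day 23, at 13.6%.

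The other CLCA genes were looked at through a list of 6, of which 5 were in the matrix. Clca3b was at least 4-fold above the uninjured 18.7 CPM in all 9 DSS libraries (187 to 412 CPM), and Clca3a1 and Clca3a2 were so in 8 of 9, at 4.81 to 13.2 and 6.63 to 33.0 CPM against 0.463 and 1.16 CPM uninjured. Clca1, a goblet cell gene, ran from 7.39 to 1589 CPM around an uninjured 294 CPM, and Clca2 was at or below 0.237 CPM. None of the 4 tested CLCA genes on the list was called for a day trend in columnar cells.

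Wfdc18 was barely detected in the uninjured library and was present in the Crypt-1, Crypt-2, Car4 and Car4/Ly6g types of each injured library. Its columnar level was 6.25 CPM uninjured, 421 at day 6, 944 at day 7, 203 at day 9, 295 at day 11, 328 at day 12, 216 at day 16, 210 at day 18, 288 at day 19 and 442 at day 23, with 575 CPM in the Il10-/- library. The lowest ratio was 32.5-fold on day 9 (counting interval 22.2 to 49.6). On days 9 to 19 the level stayed between 203 and 328 CPM, and it was higher again on day 23 in a single library.

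By type, Crypt-1 held 22.7%, Crypt-2 34.5% and Car4/Ly6g 38.5% of its columnar counts pooled over all libraries. Day 7 alone gave 15131 of the 22424 Car4/Ly6g counts. The Car4/Ly6g share per library ran from 12.2% (day 23) to 62.8% (day 7), so the pooled order does not stand for each library. Median DSS levels were 466 CPM in Crypt-1, 358 in Car4/Ly6g, 357 in Crypt-2, 148 in Car4, 102 in Goblet and 48.6 in Dpep1/Guca2a. The first 3 of these overlapped throughout, and Dpep1/Guca2a (26.3 to 73.4 CPM) lay below the whole range of each of them. Crypt-1 led in 5 libraries, with 504 CPM on day 19 and 682 on day 23, and with its highest value, 1488 CPM, in the Il10-/- library. In the uninjured library it was 10.7 CPM in Car4/Ly6g, 10.4 in Crypt-2 and 0 CPM in Car4, Dpep1/Guca2a and Goblet cells. Fibroblasts of the DSS libraries had 2.67 to 14.1 CPM, macrophages 10.2 to 20.6 and neutrophils 29.4 to 47.7 CPM.

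The other WAP domain genes that were higher are also abundant in neutrophils. Wfdc17 and Slpi, both WAP domain genes, were also at least 4-fold above the uninjured library in all 9 DSS libraries in columnar sums (87.9 to 568 CPM and 58.4 to 1179 CPM), and Wfdc21 was in 8. In neutrophils those 3 genes stood at medians of 15939, 5511 and 3346 CPM. Neutrophil markers in columnar cells were also above the uninjured library in every DSS library, as given above, and their part was not tested. Wfdc2 stayed at 364 to 655 CPM against an uninjured 453 CPM.

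Mptx1 was a goblet cell gene in these data, which goes against calling it a colonocyte gene. Goblet cells held 91.5% of its columnar counts, and their level was 18040 CPM in 63 uninjured cells. It was 0 CPM in 15 cells at day 6, 1422 CPM in 147 cells at day 7, 0 in 16 cells at day 9 and 233 CPM in 178 cells at day 11. From day 12 on it was 11455 CPM (10 cells), 4563 at day 16 (34 cells), 4830 at day 18 (804 cells), 1539 at day 19 (47 cells) and 1779 at day 23 (78 cells), and it was 11905 CPM in 56 Il10-/- cells. No DSS library reached the uninjured value, and the libraries of days 6, 9 and 12 hold too few goblet cells for a level to be read.

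Few cells carried those counts. In the uninjured library 44 of 63 goblet cells had a Mptx1 molecule, 1 cell had 1606, and the top 6 cells held 80.4% of the counts. On day 18, 408 of 804 had one, and 80 cells held 95.9%. On day 11, 24 of 178 had one, and 18 cells held 99.1%. After thinning, 59.7% of uninjured, 38.3% of day 7, 5.36% to 26.7% of other DSS and 47.1% of Il10-/- goblet cells held a molecule, in libraries with at least 20 such cells, against 0% to 3.39% of DSS and 2.74% of uninjured fibroblasts. Before thinning the goblet shares were 69.8% uninjured, 13.5% to 64.6% in DSS and 55.4% in Il10-/- libraries. Outside goblet cells, Mptx1 was 10.3 to 66.3 CPM in the other uninjured columnar types with at least 20 cells, beside 31.4 CPM in uninjured fibroblasts and 36.4 CPM in macrophages, which should lack it. An uninjured enteroendocrine cell held 721 of the 723 counts in that type. Goblet cells were 8.90% of uninjured columnar cells and 2.73% to 18.5% of those in the DSS libraries, so the columnar sum of Mptx1 (1458 CPM uninjured, 0 to 765 in DSS) moves with both. The columnar sum on days 9 to 19 was 0, 16.7, 202, 369, 765 and 128 CPM, in order of day. Of 6 other pentraxins, none had enough counts for the day trend test: Mptx2 and Apcs had 0 columnar counts, Crp had 1, Nptx1 and Nptx2 were at or below 0.822 CPM, and Ptx3, made by stromal and myeloid cells, was at most 9.70 CPM.

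S100g was lowest just after DSS and nearer its uninjured level later, and stood highest in the Il10-/- library. The columnar level was 103.2 CPM uninjured, 6.63 at day 6, 4.62 at day 7, 8.11 at day 9, 14.5 at day 11, 53.0 at day 12, 60.1 at day 16, 92.1 at day 18, 22.8 at day 19, 79.3 at day 23 and 358 CPM in the Il10-/- library. All 9 DSS libraries were below the uninjured one, by 22.3-fold on day 7 (counting interval 18.2 to 27.6) and 1.12-fold on day 18 (1.01 to 1.24), and day 19 broke the order of the later days. With the mean of the cells' own CPM, days 12 and 18 were above the uninjured library (log2 ratios of 0.014 and 0.42). The Il10-/- level was 3.47-fold higher (3.13 to 3.85).

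Crypt-2 had the highest S100g level of the columnar types on days 7, 9 and 11, and Car4 on day 19. Car4/Ly6g cells led in 7 of 11 libraries and held 71.9% of the S100g counts pooled over all libraries. Per library that share ran from 12.1% on day 9 to 87.9% on day 12. There the level was 374 CPM uninjured, 15.3 at day 6, 4.36 at day 7, 7.80 at day 9, 15.4 at day 11, 168 at day 12, 174 at day 16, 288 at day 18, 46.7 at day 19, 340 at day 23 and 917 CPM in the Il10-/- library. Median DSS levels in the other types were 24.1 CPM in Car4, 13.3 in Crypt-2, 8.90 in Crypt-1, 5.08 in Goblet and 0.931 in Dpep1/Guca2a, and the ranges of Car4, Crypt-2 and Car4/Ly6g overlapped. Even in its leading type few cells held a molecule: 12.6% of uninjured, 0% to 10.9% of DSS and 27.1% of Il10-/- Car4/Ly6g cells after thinning, against at most 0.847% of DSS fibroblasts. Before thinning the shares were 23.0% uninjured, 3.29% to 24.7% in DSS and 44.5% in Il10-/- libraries. On day 23, 15 of 147 cells held 99.2% of the S100g counts of the type.

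**Figure D3:**
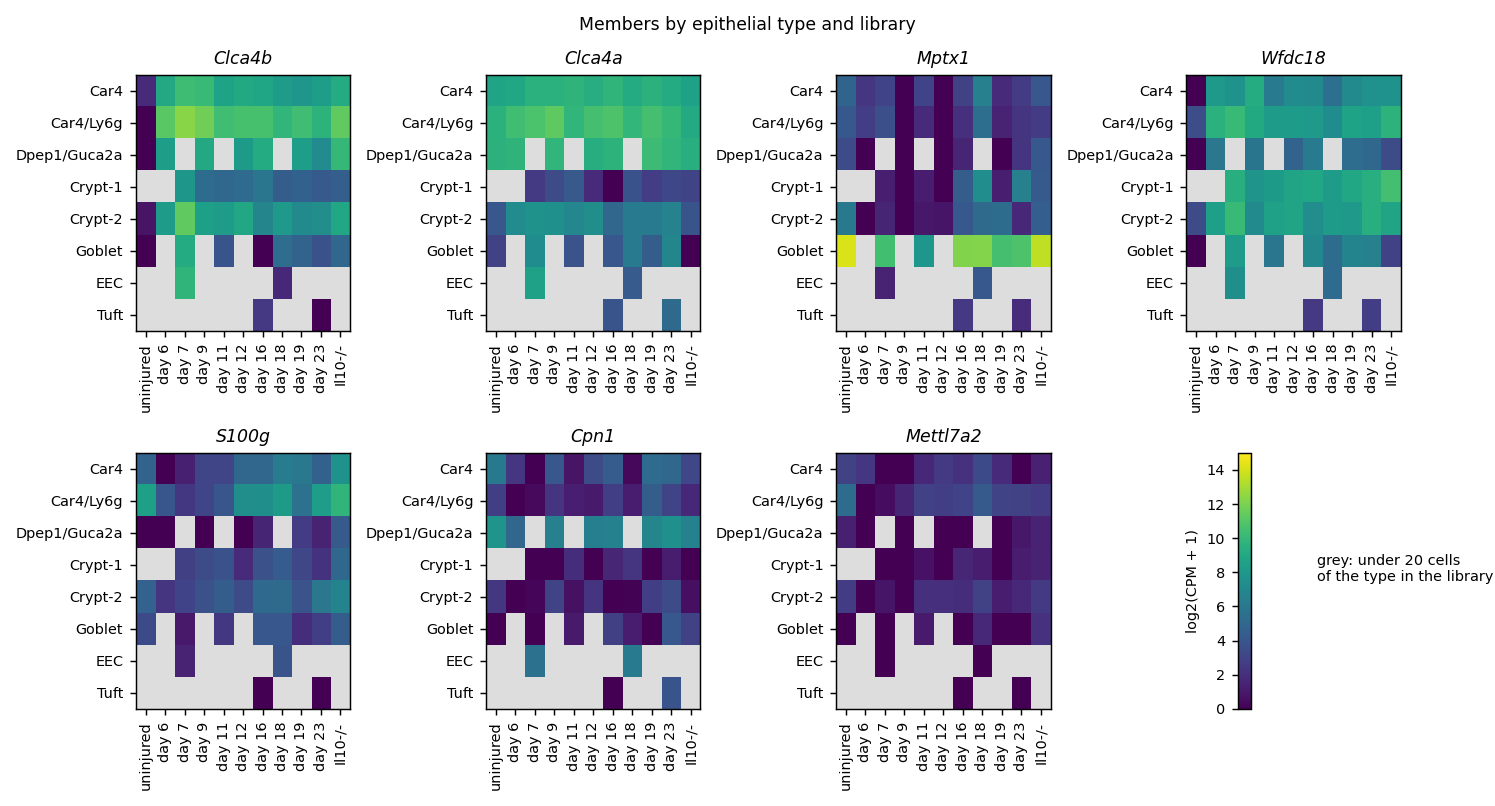
Levels as log2(CPM + 1) for each gene in 8 epithelial types (rows) and 11 libraries (columns), grey where a library held under 20 cells of the type. In most libraries, though not all, Clca4b, Clca4a, S100g and Mettl7a2 are brightest in Car4/Ly6g, Mptx1 in Goblet, Cpn1 in Dpep1/Guca2a, and Wfdc18 in Car4/Ly6g, Crypt-1 and Crypt-2.

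A list of 8 other genes of calcium absorption and vitamin D gave 5 that were tested in columnar cells, and edgeR called none for a day trend. Trpv6, the apical calcium channel, had 5.55 CPM uninjured, 1.1 CPM on day 7, 23.3 on day 18 and 44.2 CPM in the Il10-/- library, with a slope of 2.18 ± 0.47 (SE) log2 units per 10 days and an edgeR adjusted p of 0.0954. Vdr, the vitamin D receptor, was below its uninjured 174 CPM in all 9 DSS libraries (60.3 to 130 CPM). Cyp24a1 had 0 counts, and Atp2b1, a calcium pump of the basolateral membrane, ran from 163 to 299 CPM against 383 CPM uninjured.

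Cpn1 marked the Dpep1/Guca2a colonocytes, which held 61.3% of its columnar counts and led in 8 libraries. In that type the level was 219 CPM uninjured, 30.3 at day 6, 92.4 at day 9, 88.7 at day 12, 94.6 at day 16, 110 at day 19, 184 at day 23 and 93.6 CPM in the Il10-/- library. The columnar sums were 50.0 CPM uninjured, 3.06 at day 6, 21.1 at day 9, 11.2 at day 12, 15.8 at day 16, 23.4 at day 19, 37.1 at day 23 and 11.7 CPM in the Il10-/- library. In batch C they were 0.196 CPM at day 7, 1.79 at day 11 and 1.62 at day 18, below all 6 frozen DSS libraries. With cells limited to at least 1000 UMIs and at most 25% mitochondrial counts, day 23 stood above the uninjured library (log2 ratio 0.33).

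The type itself was missing from batch C. The Dpep1/Guca2a type made up 12.9% of uninjured columnar cells, 8.05% to 23.7% in the frozen DSS libraries and 11.6% in the Il10-/- library, but 0 of 1725 cells at day 7 (which allows up to 0.174%), 1 of 1827 at day 11 and 0 of 4356 at day 18. Its markers Guca2a and Dpep1 summed to 342 to 413 CPM in batch C columnar cells and 2172 to 4405 CPM in the frozen DSS libraries, with 3457 CPM uninjured. The 6 listed genes of posterior colon position summed to 327 to 441 CPM in batch C, 181 to 290 CPM in the frozen DSS libraries and 418 CPM uninjured. Of the 6, edgeR called Hoxb13 (0.64 ± 0.17, adjusted p 0.0385) and Hoxd13 (0.87 ± 0.18, 0.0131) as higher in batch C, beside 10.4% of all genes for batch. The rest were not called and differed in sign (−1.26 to 0.61). The 7 listed genes of anterior position overlapped, at 14.2 to 47.2 CPM in batch C, 23.0 to 49.4 CPM in the frozen DSS libraries and 30.8 CPM uninjured. That sum was mostly Hoxa7 (12.6 to 45.4 CPM over the DSS libraries). Storage, number of mice and run cannot be told apart here.

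Enteroendocrine cells of batch C were a further site of Cpn1. In batch C they had 46.5 CPM at day 7 (20 cells), 53.9 at day 11 (19 cells) and 67.4 at day 18 (22 cells), above each columnar type of the same libraries, and 12, 8 and 13 cells held a molecule. Over all libraries 35 of 94 enteroendocrine cells (37.2%) and 7 of 146 tuft cells (4.79%) did, against at most 0.949% of DSS fibroblasts. Most of those 35 cells came from batch C, so the pooled share does not stand for each library. The enteroendocrine cells of days 7 and 18 were deep, at medians of 23851.5 and 9975.5 counts, and after thinning 5% and 14.3% of them held a molecule. Thinned shares in Dpep1/Guca2a cells were 20.9% uninjured, 4.17% to 20.1% in DSS and 11.9% in Il10-/- libraries, and before thinning 53.8%, 16.7% to 54.5% and 29.1%.

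Among 6 other basic carboxypeptidases, 3 were tested in columnar cells. Cpe had the wider course, at 3.70 CPM uninjured, 28.6 at day 6, 70.9 at day 7 and 5.58 at day 23, and in Car4/Ly6g cells its day slope was called by edgeR, at −2.41 ± 0.44 (SE) with an adjusted p of 0.0472. Cpm, a membrane-bound relative, was called as higher in batch C (1.26 ± 0.28, adjusted p 0.0201). Cpn2, which encodes the other subunit of carboxypeptidase N, was at or below 2.78 CPM in columnar cells.

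Mettl7a2 had the fewest counts, 1 to 373 per columnar sum. Its level was 12.0 CPM uninjured, 0.510 at day 6, 0.431 at day 7, 0.246 at day 9, 2.27 at day 11, 3.21 at day 12, 3.22 at day 16, 7.36 at day 18, 2.38 at day 19, 2.29 at day 23 and 3.97 CPM in the Il10-/- library. Days 6 and 9 rest on 1 count each, and their inverse ratios have counting intervals of 4.05 to 949 and 8.40 to 1970. The leading type was Car4/Ly6g in 9 libraries, at 38.1 CPM uninjured, 0 to 17.9 CPM in DSS and 5.38 CPM in the Il10-/- library, and 22.2% of uninjured and 12.1% of day 18 Car4/Ly6g cells held a molecule before thinning. After thinning the shares were 2.96% or less, too near 1 molecule for a change to be read. Mettl7a3 was at least 4-fold below its uninjured 6.25 CPM in 7 DSS libraries. Mettl7a1, whose transcripts hold part of the end of Mettl7a2, was at 32.6 to 72.3 CPM against 95.8 CPM uninjured.

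**Figure D4:**
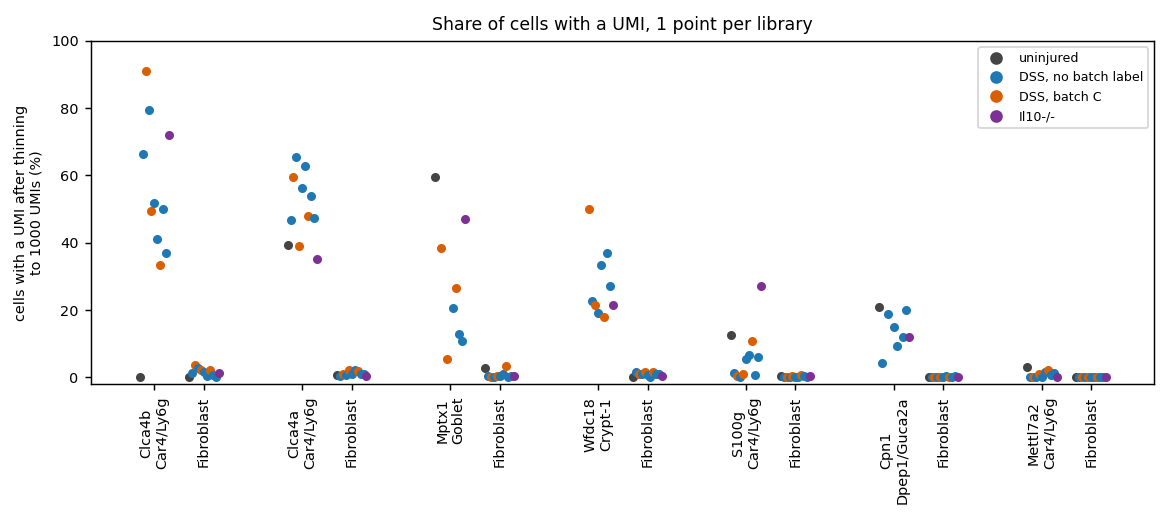
Percentage of cells with at least 1 molecule after each cell was thinned to 1000 UMIs, in the leading type of each gene and in fibroblasts, 1 point per library. Clca4b is at 0 in the uninjured library and at 33.5% to 91.1% in DSS libraries, while fibroblast points stay at or below 3.75%.

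Across the 9 DSS libraries, the change with day was tested with edgeR's quasi-likelihood test on summed counts, with day in units of 10 and batch label as terms, and with Benjamini-Hochberg adjustment over all genes. In columnar cells 0 of the 7 genes were called at an adjusted p of 0.05, beside 0.229% of 10914 genes. An unadjusted p under 0.05 was found for 4 of the 7, and for 1454 of the 10914 genes. DESeq2 called 2 of the 7, Clca4b and S100g, among 371 genes in all. S100g had the lowest p of the 7, with a slope of 2.29 ± 0.56 (SE) log2 units per 10 days with an adjusted p of 0.123. Clca4b had a slope of −1.65 ± 0.56 (adjusted p 0.244), Mettl7a2 1.89 ± 0.61 (0.222), Cpn1 1.16 ± 0.39 (0.241) and Mptx1 2.57 ± 1.32 (0.438). Clca4a, at −0.67 ± 0.42 (0.531), and Wfdc18, at −0.41 ± 0.42 (0.72), had slopes of under 2 times their SE. In the 6 frozen DSS libraries alone, Clca4b fell by 0.98 per 10 days and was called (slope −0.98 ± 0.16, edgeR adjusted p 0.0147), and without day 7 it was called as well (−0.85, adjusted p 0.0387). Those fits called 109 and 179 genes, against 25 with all 9 DSS libraries.

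Within types, where the mix of types does not enter, edgeR again called none of the genes. In Car4, 0 of 4 tested genes were called (0.857% of 2918 genes). Of the 4, 3 had an unadjusted p under 0.05, as had 367 of the 2918 genes. DESeq2 called Clca4b and S100g, among 58 genes in all. In Car4/Ly6g, 0 of 4 were called (1.11% of 6599 genes). All 4 had an unadjusted p under 0.05, as had 1193 of the 6599 genes. DESeq2 called the same 2 genes, among 357 in all. There Clca4b had −1.35 ± 0.32 with an edgeR adjusted p of 0.0855 and S100g 3.20 ± 1.04 with 0.178. In Crypt-1, 0 of 5 were called (1.40% of 8281 genes), and Mptx1, at 0 to 162 CPM there, had 8.28 ± 1.35 (edgeR adjusted p 0.0673). It was the only 1 of the 5 with an unadjusted p under 0.05, which 1306 of the 8281 genes had. DESeq2 called Mptx1, among 257 genes in all. In Crypt-2, 0 of 5 were called (0.194% of 8765 genes), and S100g had 1.75 ± 0.32 (edgeR adjusted p 0.0555). Of the 5, 4 had an unadjusted p under 0.05, as had 1333 of the 8765 genes. DESeq2 called S100g and Mptx1, among 290 genes in all. Mptx1 also reached 32.5 CPM in fibroblasts and 83.3 CPM in neutrophils of the DSS libraries, which should lack it. How much of its Crypt-1 and Crypt-2 counts was such background was not tested.

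Leaving out 1 library moved several of these slopes past the threshold. In Car4/Ly6g cells Clca4b fell with day without day 6 (−1.64, edgeR adjusted p 0.0412) and without day 7 (−0.998, 0.0266), and Clca4a fell without day 6 (−0.77, 0.0426). Of all genes, 161 were called without day 6 and 68 without day 7, against 73 in the main fit. In Car4 cells Clca4b fell without day 6 (−1.56, 0.00505) and S100g rose without day 23 (4.23, 2.53e-05). These 2 fits called 48 and 35 genes, against 25 in the main fit. In Crypt-2 cells S100g rose without day 11, 16 or 19 (1.83, 1.78 and 1.86, with adjusted p of 0.0282, 0.0448 and 0.0213), and Mptx1 rose without day 23 (5.24, 0.0479). The main fit called 17 genes there, and these called 138, 29 and 25, and 58 without day 23. Mptx1 had 0 counts in Crypt-2 on days 6 and 9 and 470 on day 18. In Crypt-1 cells Mptx1 rose without day 16 (9.74, 2.04e-05). Wfdc18 rose without day 7 (0.84, 0.0294), in the frozen libraries alone (1.03, 0.00123) and with stricter limits on cells (0.89, 0.027). Its slope was 0.22 ± 0.55 in all 8 libraries with enough of these cells. Genes called were 100 without day 16, 242 without day 7 and 200 with stricter cells, against 116 in the main fit. With log2 of the day in place of the day, S100g rose in Car4 (3.14, 0.0111) and Crypt-2 (1.65, 0.0314), where 54 and 118 genes were called. For Clca4b and S100g the sign was the same in each of these types and fits.

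A pair of fits was added after the data were seen, for the leading types of Mptx1 and Cpn1. In goblet cells edgeR called 0 of 4485 genes (150 had an unadjusted p under 0.05, and DESeq2 was not run for these fits), and the slope of Mptx1 was 1.23 ± 2.18 (adjusted p 0.9998). In the Dpep1/Guca2a type of the 6 frozen DSS libraries, 0 of 4 genes were called beside 0.307% of 4554 genes. Cpn1 had 0.85 ± 0.20 with an edgeR adjusted p of 0.0658. It was the 1 gene of the 4 with an unadjusted p under 0.05, which 323 of the 4554 genes had.

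**Figure D5:**
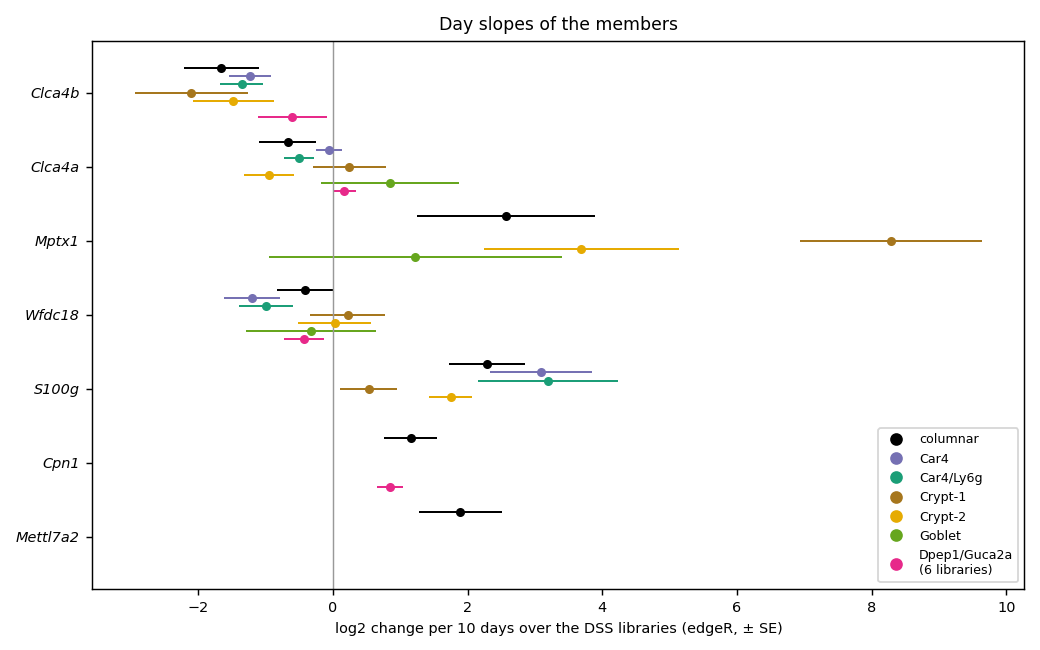
Day slopes of each gene in log2 units per 10 days over the DSS libraries, with the SE from edgeR, in columnar cells and in each type that was tested. Clca4b slopes lie below 0 and S100g slopes above 0 in all fits that tested them, and none passed an adjusted p of 0.05.

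Whether the middle of the course differed from its ends was asked with the squared day. The edgeR test called 0 of the 7 genes (0.00881% of 11353 genes). An unadjusted p under 0.05 was found for 2 of the 7, and for 582 of the 11353 genes. The 2 were Mettl7a2 (−3.0 ± 0.85) and Wfdc18 (1.89 ± 0.67), each with an edgeR adjusted p of 0.88. DESeq2 called 0 of the 7. Over days 9 to 19 alone, an added fit, slopes were 5.57 ± 3.64 for Mptx1, 2.31 ± 1.58 for S100g, 2.16 ± 0.62 for Mettl7a2 (adjusted p 0.123), 0.22 ± 0.32 for Cpn1 and −0.42 ± 0.23 for Clca4b, none of them called. The batch term called 1 of the 7, Cpn1, at −3.88 ± 0.52 in batch C (edgeR adjusted p 0.00149), beside 10.4% of 10914 genes. DESeq2 also called 1 of the 7, among 1804 genes in all. Without day 7, Clca4a was also called as lower in batch C (−1.40, edgeR adjusted p 0.00065), in a fit that called 3976 genes against 1137 with all 9 libraries.

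Other groups of genes give the setting. Of all genes tested in columnar cells, 0.229% were called for the day trend and 10.4% for batch. Of 20 surface colonocyte genes 0 were called for the columnar day trend, with a median slope of −0.29 against 0.01 over all genes tested, and 5 fell in batch C: Dpep1, Guca2a, Tmigd1, Cyp2c55 and Emp1 (−1.81 to −4.30). Of 15 genes of the injury response 0 were called for the day trend, with a median slope of −0.96, and 4 fell in batch C, led by Reg3b (−10.97 ± 1.2) and Reg3g (−9.73 ± 0.98), lectins against bacteria. In Car4/Ly6g cells Saa3, an acute phase gene, fell with day (−3.26 ± 0.56, edgeR adjusted p 0.0476). Of the 15, Nos2, Duox2, Duoxa2, Ifi47 and Retnlb were at least 4-fold above the uninjured library in all 9 DSS libraries, as were 1.02% of 8626 genes. Ly6a, Ly6c1 and Saa3 were so in 8, Lcn2 in 7, Ly6g, Saa1 and Sprr1a in 1 each, and Anxa1 in 0. Reg3b and Reg3g were 4-fold higher in 6 and 4-fold lower in 3.

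Over the 11 libraries, columnar levels as log2(CPM + 1) were compared with those of 11848 other genes, as a description that shares the libraries and their make-up. The uninjured library, whose ratios chose the 7 genes, is 1 of the 11 points, so likeness among them draws on values used in choosing them. Clca4b was most like Adgrf1 (Pearson r 0.97), Aldh1a3 (0.97) and Gm14137 (0.97), and Wfdc18 was most like Clca4b itself (0.96), then Zbp1 and Oasl2 (0.95 each). S100g was most like Trpv6 (0.91), Pdzd3 (0.91) and Retsat (0.88). Cpn1 was most like Slc13a1 (0.96), Mtmr4 and Smad6 (0.94 each), Clca4a was most like Sft2d2 (0.93), F2rl1 (0.92) and Sowahb (0.89), Mptx1 was most like Ttll3 (0.95), Cacna1e (0.93) and Eno3 (0.91), and Mettl7a2 was most like Rapgefl1, Atat1 and Eno3 (0.92 each).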

How the data were processed

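Expression was read as whole UMI counts, which the authors deposited as a gene by cell matrix together with a cell table of libraries and types. Alignment used Cell Ranger 3.0.0 and mm10, per the submitters' processing notes. The authors' cell filters and doublet handling are not stated in the sources used, and no doublet caller was run here. From 14 libraries, 11 were used, each tied to its sample by day and batch; another 3 libraries (12621 cells) had no matching sample, and 597 placeholder rows (0.517% of counts) were dropped. The 7 genes and all gene lists were chosen with earlier results of these data known. Named beside the 7 are list genes past a test, the 3 most alike genes, and list genes singled out after their values were seen.

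Counts were summed per library and type, with a minimum of 20 cells for a type's level unless its cell number is printed, and CPM used all counts. Intervals at 95% are exact Poisson (levels), exact conditional binomial (ratios) and Clopper-Pearson (shares). A count of 0 was set to 3 counts for ratios. Thinning to 1000 UMIs left out shallower cells. Fits used edgeR 4.0.16 (quasi-likelihood, robust, TMM, filterByExpr, Benjamini-Hochberg adjustment) and, as an alternative, DESeq2 1.42.0, in R 4.3.3, and were tested on simulated data. With 1 library per group, p-values measure the scatter of libraries around a line in day. Columnar depth was 1959349 to 50651546 counts per library. Alternatives were other scalings and filters, stricter cells (at least 1000 UMIs, at most 25% mitochondrial counts), other designs, libraries left out and weights of cells or types.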

Additional observations from a re-analysis of the deposited data

How the results depend on the processing

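No paired analysis was possible because each group had 1 library and the labels carry no replicate numbers. Clca4b and Wfdc18 were at least 4-fold higher in all 9 DSS libraries under each of the 5 other scalings and weightings, while the number of the 7 genes at least 4-fold lower in at least 5 libraries went from 4 to 2 with the mean of the cells' CPM and to 2 with equal weight per type. Ratios that changed sign were those of Clca4a at day 11 (log2 0.66, equal weight) and day 18 (0.10, mean of cells; 0.49, equal weight), S100g at days 12 and 18 (0.014 and 0.42, mean of cells) and Cpn1 at day 23 (0.33, stricter cells). Counts were few for Mettl7a2 (1 count each on days 6 and 9) and for Mptx1 on days 6 (4 counts) and 9 (0 counts).

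The number of genes called for the columnar day trend was 25, against 371 with DESeq2, 120 with no filter on low counts, 2 with stricter cells, 109 in libraries with no batch label, 8 with no batch term and 205 over days 9 to 19. Leaving out 1 library gave 1 (without day 18) to 179 (without day 7), with 52 without day 6, 112 without day 11, 4 without day 12 or day 16, 16 without day 9, 14 without day 19 and 9 without day 23. For curvature, DESeq2 called 4 against 1, and leaving out 1 library gave 0 (without day 19) to 3 (without day 7). For the batch difference, DESeq2 called 1804 against 1137, and leaving out 1 library gave 324 (without day 18) to 3976 (without day 7). In Car4 the 25 calls became 58 with DESeq2, 178 with no filter, 0 with no batch term and 54 with log2 of the day, and 1 (without day 18) to 74 (without day 11). In Car4/Ly6g the 73 became 357, 777, 0 and 125 in the same order, 11 in libraries with no batch label, and 2 (without day 18) to 243 (without day 11). In Crypt-1 the 116 became 257 with DESeq2, 558 with no filter, 200 with stricter cells and 2 with no batch term, and 32 (without day 23) to 281 (without day 11). In Crypt-2 the 17 became 290, 308, 44 and 0 in the same order, 27 in libraries with no batch label, 118 with log2 of the day, and 0 (without day 18) to 138 (without day 11). The cause was not tested.

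Some slopes of the 7 genes changed sign. The Wfdc18 columnar slope was 0.074 in libraries with no batch label and 0.017 over days 9 to 19, where Clca4a had 0.40 (SE 0.21). Clca4a in Car4 had 0.053 with no filter, 0.14 in libraries with no batch label and 0.015 with log2 of the day, and Wfdc18 in Crypt-2 had −0.047 with stricter cells, −0.26 with no batch term and −0.12 with log2 of the day. Leaving out 1 library gave, for the columnar trend, −0.997 to 0.0045 for Wfdc18. For curvature it gave −0.66 to 2.03 for Clca4b, −0.64 to 1.81 for Clca4a and −2.60 to 0.13 for Cpn1. For the batch difference it gave −1.01 to 1.06 for Clca4b, −1.40 (called, without day 7) to 0.038 for Clca4a, −0.64 to 0.91 for Wfdc18, −1.21 to 0.18 for S100g and −0.094 to 1.23 for Mettl7a2. Within types it gave −0.30 to 0.13 for Clca4a in Car4, −0.39 to 0.74 for Clca4a and −0.28 to 0.84 (called, without day 7) for Wfdc18 in Crypt-1, and −0.84 to 0.39 for Wfdc18 in Crypt-2. With no filter on low counts, Clca4b, Wfdc18 and S100g were called in Car4 and Car4/Ly6g, in fits that called 178 and 777 genes. Stricter cells were not run for Car4, since 3 libraries kept 20 such cells.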
